A study of Mus musculus with 12 samples.

Results

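The genes of oxidative phosphorylation were followed in the cortex of mice that had drunk ethanol and then abstained, with the nuclear and the mitochondrial genes kept apart. Members were picked by their symbols, and the set was chosen with earlier results of these data known. Nuclear members were the symbols beginning with Nduf (complex I, its assembly factors and its relatives), Sdha to Sdhd (complex II), Uqcr (complex III), Cox4 to Cox8 (complex IV) or Atp5 (complex V), without antisense transcripts and pseudogenes. Of 33024 gene symbols in the count table, 98 were nuclear members. A mitochondrial member was any of the 13 protein genes of mitochondrial DNA. The mt- prefix of the rule matched 0 symbols, because the table lists these genes under their RefSeq symbols (ND1 to ND6, ND4L, COX1 to COX3, CYTB, ATP6 and ATP8), and they were taken under those names. This gave 111 members in all.

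Bulk RNA sequencing was made on the brain cortex of 12 C57BL/6 mice from Arm #2 of the study, the abstinence arm, with 1 library per mouse. The 7 mice labelled Control received the vehicle, with water in both bottles. The 5 mice labelled EtOH had a bottle of ethanol (20%, v/v) beside a water bottle for 12 h of each of 35 dark-phase sessions, starting at 30 days of age, and then abstained for 14 days. In the study, mice of this arm then went through water maze, Y-maze, forced swim and rotarod tests. The cortex was taken after these tests, so more than 14 days after the last drinking session. All mice were wild type, and all were perfused with saline before the cortex was taken. Voluntary drinking sets the dose, so the intake of each ethanol mouse was its own choice. The comparison asks whether transcripts of the respiratory machinery differed between both groups after abstinence.

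Oxidative phosphorylation takes place in the inner mitochondrial membrane. Complexes I and II feed electrons from NADH and succinate to ubiquinone, complex III passes them to cytochrome c, complex IV hands them to oxygen, and complex V uses the resulting proton gradient to make ATP. Neurons draw most of the energy for restoring their ion gradients from this pathway. Complexes I, III, IV and V are built from subunits encoded in both genomes, whereas complex II is wholly nuclear.

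Total counts per mouse lay between 31768076 and 42183029, with Control 5 and EtOH 1 the deepest libraries, and 3 counts, taken as the floor for detection, corresponded to at most 0.0962 CPM, the count scaled to library size. The labelled tissue was checked against its markers. All 9 markers of cortical excitatory neurons were detected, and their summed level was 7218 to 9038 CPM in Control and 7363 to 8557 CPM in EtOH. A marker counts as higher or lower by edgeR's quasi-likelihood test at an adjusted p under 0.05. Of these 9 markers, 2 were lower in EtOH (Tbr1 and Nrgn) and 3 were higher (Cux2, Neurod2 and Neurod6). Markers of neighbouring regions and of other cells also moved with the groups. The 10 striatal markers summed to 806 to 1778 CPM in Control and 209 to 257 CPM in EtOH, and all 10 were lower in EtOH. The 10 hippocampal markers summed to 360 to 488 CPM in Control and 551 to 608 CPM in EtOH, with 7 higher. The 10 oligodendrocyte markers summed to 4644 to 6154 CPM in Control and 3109 to 5545 CPM in EtOH, with 9 lower, and EtOH 2, the highest, lay within the Control range whereas the other 4 lay below it. The 9 microglial markers summed to 370 to 426 CPM in Control and 316 to 339 CPM in EtOH, with 6 lower, and the 9 interneuron markers to 1173 to 1508 CPM against 931 to 1026 CPM, with 5 lower. The choroid plexus markers, of which 5 of 7 tested were higher, summed to 234 to 289 CPM in Control and to 357, 237, 1539, 548 and 193 CPM in EtOH, so that EtOH 3 stood far apart. No listed marker of these 7 kinds was at 0 in all mice. The libraries labelled as cortex therefore differed between groups in region-specific transcripts, and their part in the results below was not tested. In tissue of this kind, fewer cells of a type and less RNA per cell cannot be told apart.

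Nuclear oxidative phosphorylation transcripts were lower in the ethanol mice by a modest amount. Of 93 nuclear members with enough counts to be tested, 28 fell at an adjusted p under 0.05 (edgeR quasi-likelihood test, Benjamini-Hochberg over 16059 genes), or 30.1%, beside 11.6% of all tested genes that passed in that direction and 23.7% that passed in either. None rose, at the adjusted threshold or at an unadjusted p under 0.05, and DESeq2 and limma voom also gave 0 higher, beside 12.1% of all tested genes that edgeR called higher. The fitted log2 fold change was negative for 87 of the 93, against 50% of all genes, and its median was -0.14, a change of -9.45%, whereas the median over all genes was 7.2e-05. The changes were small. Leaving out Cox4i2, the 28 lower members fell by between 0.16 and 0.38 on the log2 scale, or between 10.3% and 23.3%, and the median within-group SD of a nuclear member was 0.14 on the same scale. Only 1 member, Cox4i2, also passed a minimum log2 fold change of 0.5, a size reached by 8.29% of all tested genes together with the adjusted p.

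Taken by mouse, the mean log2 CPM over the 93 genes was 5.67 ± 0.11 (SD, n = 7) in Control and 5.52 ± 0.04 (SD, n = 5) in EtOH, a difference of -0.15. The Control values ran from 5.51 over a median of 5.63 to 5.82, and the EtOH mice lay at 5.58, 5.53, 5.46, 5.51 and 5.50. Of the 7 Control mice, 6 lay above every EtOH mouse, and Control 6, the lowest, lay within the EtOH range. Controls 2, 3 and 4 were the highest of the 12. The same 3 mice had striatal marker sums of 1778, 1217 and 1509 CPM, whereas Control 6 had 1565 CPM and Control 7 the lowest, 806 CPM.

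**Figure D1:**
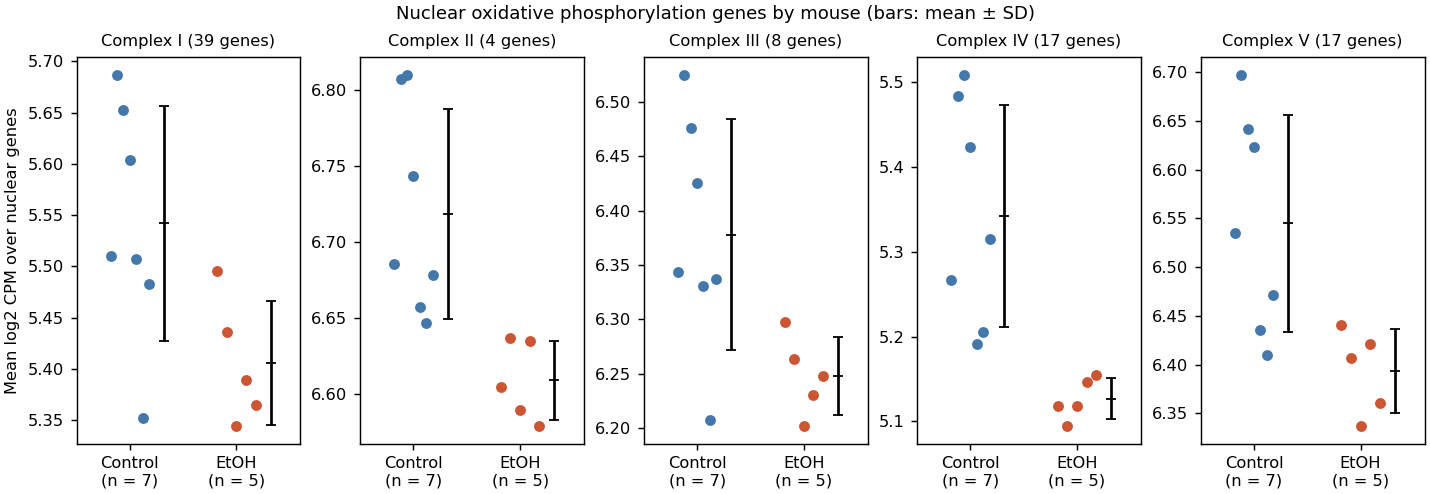
Mean log2 CPM over the nuclear genes of each complex (vertical axes, 1 scale per panel, not starting at 0), with 1 point per mouse, 7 Control and 5 EtOH, and the mean ± SD beside them. The complex I panel leaves out assembly factors. In the panels for complexes II and IV every EtOH mouse lies below every Control mouse, whereas in the other panels the lowest Control mice reach the EtOH values.

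Complex IV, cytochrome c oxidase, had the largest share of lower members. Of 17 tested nuclear genes, 8 fell (47.1%, beside 11.6% of all tested genes), and the median log2 fold change was -0.19. The mean log2 CPM over these genes was 5.34 ± 0.13 (SD, n = 7) in Control and 5.13 ± 0.02 (SD, n = 5) in EtOH. Every EtOH mouse lay below every Control mouse, with 5.15 the highest EtOH value and 5.19 the lowest Control value. This mean weighs all 17 genes equally, and 6 of them are isoforms, some of them scarce. The median log2 fold change was -0.32 for these 6 isoforms, 2 of them lower, and -0.16 for the 11 other subunits, 6 of them lower. The separation without the isoforms was not tested.

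Cox6a1 encodes the broadly expressed form of subunit 6A. Its level in Control ran from 216.5 over a median of 280.4 to 319.4 CPM, and in EtOH it was 184.5, 201.8, 210.3, 241.4 and 213.8 CPM. The ranges overlapped through EtOH 4. The log2 fold change was -0.38 (SE 0.09, adjusted p = 0.00506 by edgeR), the largest fall after that of Cox4i2 among the 28 lower members. The gene lies on chromosome 5 of GRCm39 (115483701 to 115487050, minus strand), with no exon shared with another annotated gene.

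Cox7c, a small structural subunit, ran from 72.7 over 85.3 to 99.0 CPM in Control and was at 74.8, 69.2, 66.3, 67.2 and 63.5 CPM in EtOH. EtOH 1 alone reached into the Control range. The log2 fold change was -0.33 (SE 0.07, adjusted p = 0.00379 by edgeR). Of the 100-base windows of its transcript, 68.3% also occur elsewhere in the genome, so reads may be shared with processed copies.

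Cox5a, which binds the matrix face of the enzyme, ran from 69.4 over 79.2 to 93.2 CPM in Control and was at 71.5, 58.6, 60.6, 65.8 and 66.5 CPM in EtOH. Again only EtOH 1 entered the Control range, and the log2 fold change was -0.32 (SE 0.08, adjusted p = 0.0073 by edgeR). Its partner Cox5b fell from 175 ± 17.3 CPM (SD, n = 7) to 153 ± 5.82 CPM (SD, n = 5), with a log2 fold change of -0.19 (adjusted p = 0.0411 by edgeR).

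Cox4i1, the common form of the regulatory subunit 4, ran from 240.8 over 260.8 to 286.1 CPM in Control and was at 226.3, 239.4, 222.4, 240.7 and 234.3 CPM in EtOH. Every EtOH mouse was below every Control mouse, although EtOH 4 missed the lowest Control mouse by little, and the log2 fold change was -0.16 (SE 0.05, adjusted p = 0.0372 by edgeR). Exons of Cox4i1 overlap the gene Emc8.

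Cox4i2, the alternative form of that subunit, known from lung and from vascular mural cells, was scarce. It ran from 1.32 over 1.75 to 2.76 CPM in Control and was at 0.788, 0.747, 1.19, 1.27 and 1.58 CPM in EtOH. The groups overlapped through EtOH 5, and the log2 fold change of -0.75 (SE 0.25, adjusted p = 0.0349 by edgeR) passed the threshold in 7 of the 12 fits that left out 1 mouse. Ndufa4l2, which like Cox4i2 is known from pericytes, was at 2.86 ± 0.789 CPM (SD, n = 7) in Control and 2.04 ± 0.125 CPM (SD, n = 5) in EtOH, and did not pass (log2 fold change -0.49, adjusted p = 0.061 by edgeR). Of 10 tested markers of pericytes and vascular smooth muscle, 0 were lower and 1 higher, and they summed to 232 to 261 CPM in Control and 241 to 262 CPM in EtOH.

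Cox8a, the common form of subunit 8, fell from 366 ± 49.4 CPM (SD, n = 7) to 298 ± 27.1 CPM (SD, n = 5), with a log2 fold change of -0.30 (adjusted p = 0.0232 by edgeR). Cox7a2l, which joins complexes III and IV in supercomplexes, fell from 101 ± 6.27 to 90.6 ± 3.12 CPM, without overlap between groups (log2 fold change -0.16, adjusted p = 0.0377 by edgeR). The values of Ndufa4, Cox6b1, Cox7a2 and Cox7b, all ubiquitous, gave log2 fold changes of -0.09, -0.16, -0.12 and -0.02 and did not pass. The forms typical of muscle, Cox6a2 and Cox7a1, gave -0.25 and -0.39 and did not pass, and Cox6b2, a form known from testis, gave 0.38 (adjusted p = 0.154 by edgeR) at 1.39 and 1.80 CPM. Cox7b2 and Cox8b were too scarce to be tested, at group means of 0.123 and 0.210 CPM and of 0.115 and 0.266 CPM, and Cox8c had 0 counts in every mouse, which allows at most 0.0962 CPM in 1 mouse.

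**Figure D2:**
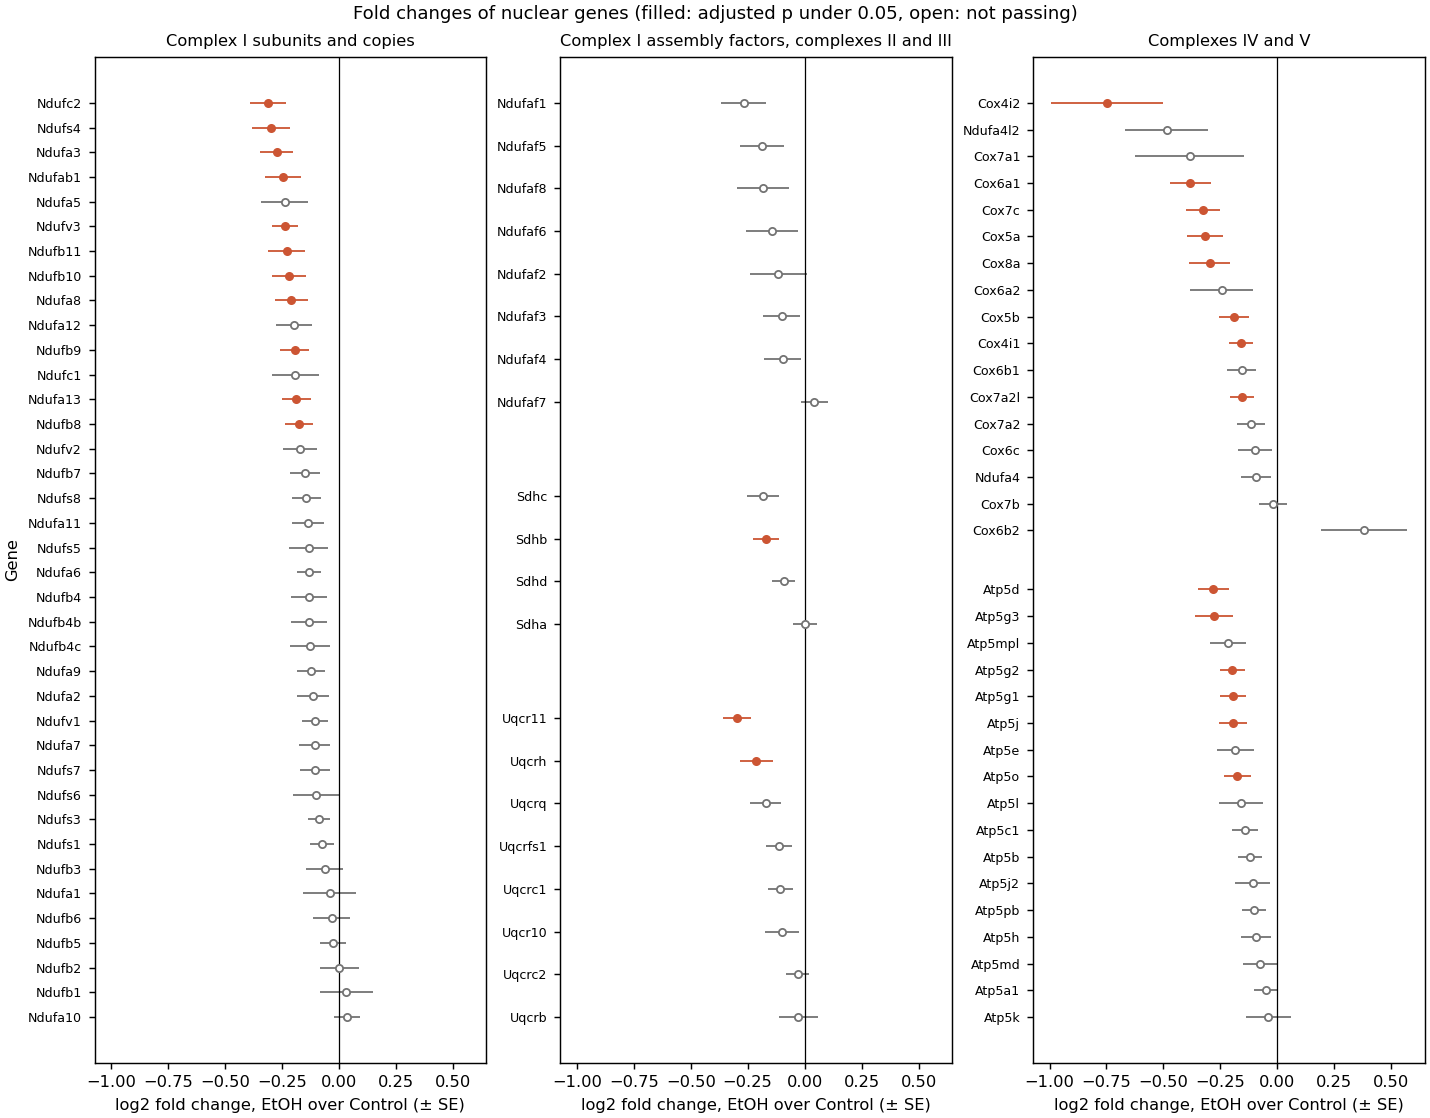
Log2 fold change of EtOH (n = 5) over Control (n = 7) with its standard error (horizontal axis) for the tested nuclear genes, sorted within each complex, with 1 gene not shown. Filled points passed an adjusted p under 0.05 and open points did not. All 28 filled points lie left of 0, with Cox4i2 at -0.75 the farthest, and 6 open points lie at or right of 0.

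Complex V, the ATP synthase, had 6 of 17 members lower (35.3%, beside 11.6% of all tested genes), with a median log2 fold change of -0.16. Its F1 subunits, alpha to epsilon, contributed 1 of 5, and the peripheral stalk and membrane part 5 of 12. All 17 fitted changes were negative. Atp5d, the delta subunit of the central stalk, ran from 196.6 over 219.9 to 246.4 CPM in Control and was at 173.9, 165.4, 184.1, 202.9 and 190.1 CPM in EtOH. The groups overlapped through EtOH 4, and the log2 fold change was -0.28 (SE 0.07, adjusted p = 0.00762 by edgeR). Its exons overlap those of Cbarp. The catalytic and structural core of F1 gave smaller values, with -0.05 for Atp5a1 (alpha, adjusted p = 0.509 by edgeR), -0.12 for Atp5b (beta, adjusted p = 0.113), -0.14 for Atp5c1 (gamma, adjusted p = 0.0761) and -0.18 for Atp5e (epsilon, adjusted p = 0.102).

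The 3 genes for subunit c, which forms the proton-driven rotor ring, all fell. The 3 genes encode the same mature protein behind different targeting peptides. Atp5g2 ran from 33.9 over 35.6 to 38.0 CPM in Control and was at 32.4, 29.5, 29.5, 33.3 and 29.7 CPM in EtOH, without overlap. Its log2 fold change was -0.20 (SE 0.05, adjusted p = 0.0139 by edgeR), that of Atp5g1 was -0.20 (adjusted p = 0.0213) and that of Atp5g3 -0.28 (adjusted p = 0.0198). Copies elsewhere in the genome match 87.5% of the windows of Atp5g2 and 63.5% of those of Atp5g1, and 0% of those of Atp5g3. Atp5o, in the peripheral stalk, was also without overlap between groups, at 34.7 ± 2.10 CPM (SD, n = 7) and 30.7 ± 1.47 CPM (SD, n = 5), with a log2 fold change of -0.18 (adjusted p = 0.0341 by edgeR).

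Complex I, the NADH dehydrogenase, had 11 of 47 tested nuclear members lower (23.4%, beside 11.6% of all tested genes), with a median log2 fold change of -0.13. All 11 were accessory subunits, of which 30 were tested. None of the 7 core subunits, which carry the flavin and the iron-sulphur clusters, and none of the 8 assembly factors passed, although all 7 core subunits and 7 of the 8 assembly factors had negative values. The difference between these counts was not tested, and the medians were -0.14 for accessory subunits, -0.11 for core subunits and -0.13 for assembly factors.

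Ndufv3, a subunit of the NADH-binding module, ran from 44.7 over 48.6 to 52.5 CPM in Control and was at 44.8, 41.9, 39.3, 39.3 and 39.2 CPM in EtOH. The groups overlapped only through EtOH 1, and the log2 fold change was -0.24 (SE 0.06, adjusted p = 0.00594 by edgeR). Ndufc2, in the membrane arm, fell from 76.5 ± 9.84 to 61.6 ± 3.00 CPM (log2 fold change -0.31, adjusted p = 0.00836). Ndufs4, a subunit whose loss causes a Leigh-like disease in mice, ran from 29.6 over 39.7 to 41.4 CPM in Control and was at 30.1, 30.2, 31.5, 28.5 and 29.3 CPM in EtOH. Of its Control mice, 4 lay near 40 CPM and 3 between 29.6 and 34.6 CPM, and Control 6 lay within the EtOH range (log2 fold change -0.30, SE 0.08, adjusted p = 0.0145 by edgeR). Among core subunits, the values were -0.08 for Ndufs1, -0.09 for Ndufs3, -0.11 for Ndufs7, -0.14 for Ndufs8, -0.11 for Ndufv1 and -0.17 for Ndufv2, with adjusted p between 0.101 and 0.33 by edgeR.

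Complex III, the cytochrome bc1 complex, had 2 of 8 members lower (25%, beside 11.6% of all tested genes). Uqcr11, its smallest subunit, had the smallest p of all nuclear members. It ran from 58.8 over 69.0 to 72.3 CPM in Control and was at 52.8, 49.7, 56.8, 55.7 and 55.6 CPM in EtOH. No EtOH mouse reached a Control mouse, and the log2 fold change was -0.30 (SE 0.06, adjusted p = 0.00224 by edgeR). Its exons on chromosome 10 of GRCm39 (80236542 to 80242676, minus strand) overlap those of 3300002P09Rik. Uqcrh, the hinge protein, fell by 0.21 on the log2 scale (adjusted p = 0.0414 by edgeR). The 2 core proteins and the Rieske iron-sulphur protein did not pass, with -0.11 for Uqcrc1, -0.03 for Uqcrc2 and -0.11 for Uqcrfs1.

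Complex II, the succinate dehydrogenase that also serves the citric acid cycle, had 1 of 4 members lower (25%, beside 11.6% of all tested genes). Sdhb, the iron-sulphur subunit, ran from 89.8 over 97.8 to 108.4 CPM in Control and was at 85.7, 91.2, 85.1, 91.8 and 84.4 CPM in EtOH (log2 fold change -0.17, SE 0.06, adjusted p = 0.0359 by edgeR). EtOH 2 and EtOH 4 overlapped with the lowest Control mouse. Sdha, the flavoprotein subunit, was at 313 ± 13.3 CPM (SD, n = 7) in Control and 314 ± 22.4 CPM (SD, n = 5) in EtOH, with a log2 fold change of 0.00 (SE 0.05, adjusted p = 0.989). The membrane anchors Sdhc and Sdhd gave -0.18 (adjusted p = 0.0717) and -0.09 and did not pass.

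Few members separated the groups completely. In 5 of the 93 tested members (5.38%), Atp5g2, Atp5o, Cox4i1, Cox7a2l and Uqcr11, every EtOH mouse lay below every Control mouse, a share near the 4.96% of all tested genes. In 0 of the 93 did every EtOH mouse lie above every Control mouse, beside 4.84% of all genes. The count of lower members depended on single mice. Leaving out 1 mouse at a time gave between 12 lower members (without EtOH 5, where 9.8% of all tested genes were lower) and 36 (without Control 5, 15% of all genes, or without Control 6, 12.1%), and fewer than 19 also without Control 2 (14), Control 3 (14), Control 4 (15), EtOH 3 (16) or EtOH 4 (18). In each of these 12 fits 0 members were higher, and the median log2 fold change stayed between -0.16 and -0.12. In all 12 fits 10 members passed, namely Atp5d, Atp5g2, Cox5a, Cox6a1, Cox7c, Ndufa3, Ndufc2, Ndufs4, Ndufv3 and Uqcr11.

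**Figure D3:**
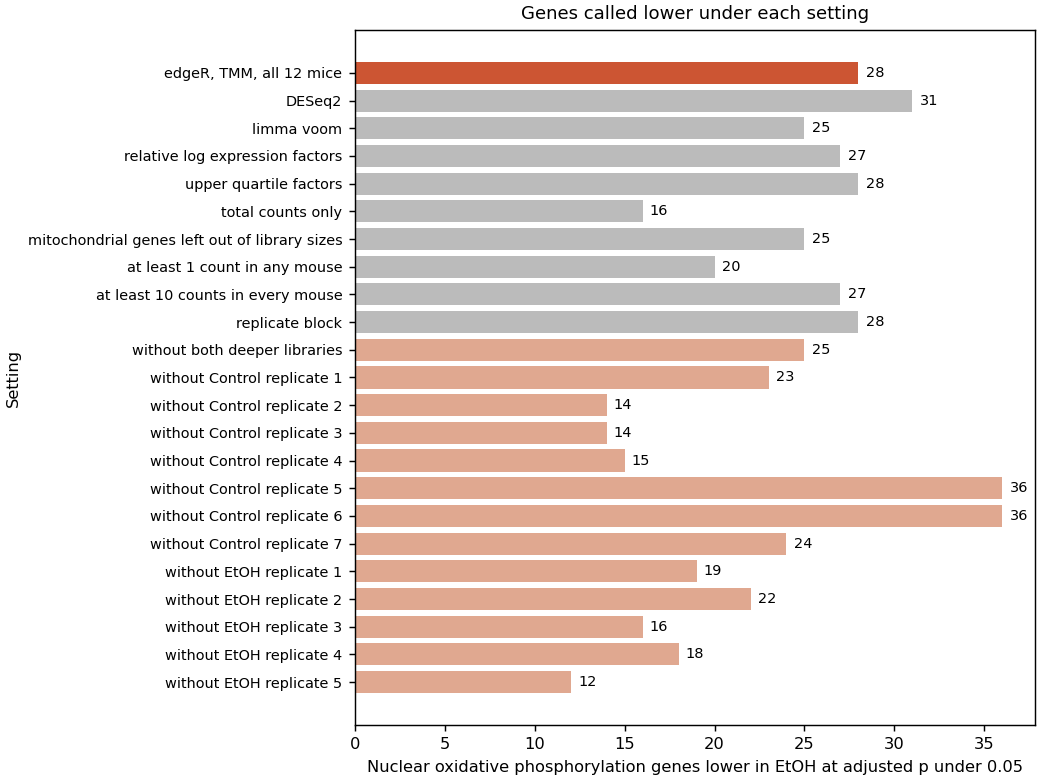
Number of nuclear oxidative phosphorylation genes called lower in EtOH (horizontal axis, from 0) in the edgeR fit over 12 mice, under other tests, scalings and filters (grey), and with mice left out (light). The bars run from 12 genes without EtOH replicate 5 to 36 without Control replicate 5 or 6.

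Transcripts of this set are short, and other genes with short transcripts also had a negative median log2 fold change. The median canonical transcript was 1090 bases over 90 members with a length, against 3532 bases over 14597 tested protein-coding genes. Among other genes with transcripts under 1000 bases, the median log2 fold change was -0.10 over 494 genes, and among 6103 genes of 4000 bases and over it was 0.06. Members lay below the other genes in each of 4 length classes, with medians of -0.16 against -0.10 under 1000 bases, -0.14 against -0.08 from 1000 to 2000, -0.10 against -0.04 from 2000 to 4000, and -0.18 against 0.06 for the longest. In the shortest class, 15 of 43 members were lower, beside 14.2% of the other genes. From 1000 to 2000 bases 7 of 24 members were lower, beside 14.7%, and from 2000 to 4000 bases only 2 of 17, beside 14%. The longest class held only 6 members, of which 3 were lower, beside 8.91% of the other genes.

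By mouse, the mean log2 CPM over these other 494 short genes was 2.85 ± 0.06 (SD, n = 7) in Control and 2.76 ± 0.03 (SD, n = 5) in EtOH, and it was highest in Controls 2, 3 and 4 and, among Control mice, lowest in Control 6, as were the nuclear members. The 82 tested cytosolic ribosomal protein genes, also short, had 0 lower and 1 higher, with a median log2 fold change of -0.07. The part of transcript length in the lower values was not tested.

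**Figure D4:**
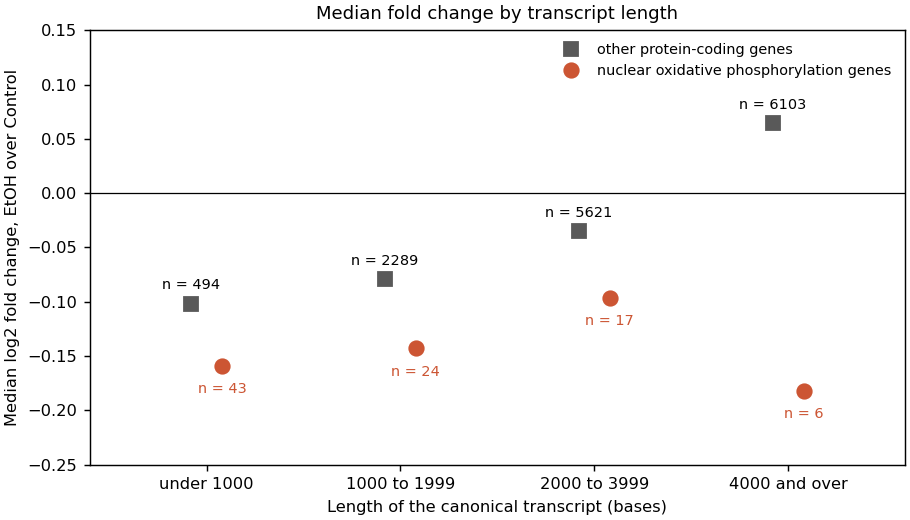
Median log2 fold change of EtOH over Control (vertical axis) in 4 classes of canonical transcript length (horizontal axis), for nuclear oxidative phosphorylation genes (circles) and all other tested protein-coding genes (squares), with the number of genes beside each point. The squares rise from -0.10 in the shortest class to 0.06 in the longest, and the circles lie below them in each class.

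Near-identical copies touched part of the list. Leaving out members with 10% or more of their windows copied elsewhere and Atp5o, which had no single position in the annotation, left 76 tested nuclear genes, of which 21 were lower with a median of -0.14. The rows of Ndufb4 and Ndufb4b held identical values, and the row of Ndufb4c, with group means of 11.7 and 10.7 CPM against 23.2 and 21.2 CPM, followed them in every mouse. These 3 rows are not separate measurements, and none passed. Ndufb11b and Cox8c had 0 counts, and Ndufs6b, at group means of 0.0632 and 0.092 CPM, was not tested. Exons of 63 of the 97 nuclear members placed in the annotation overlap another gene, and such overlaps can make their counts uncertain. How far they do is not known. The annotation used here is newer than the one the study names, and the strand setting of the counting is not given.

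Mitochondrial transcripts made up 5.76 ± 0.64% (SD, n = 7) of all counts in Control and 5.29 ± 0.90% (SD, n = 5) in EtOH. The Control mice ran from 4.55 over 5.75 to 6.55%, and the EtOH mice were at 4.08, 6.32, 6.03, 5.10 and 4.90%. The groups overlapped widely, and the lowest mouse of each group, Control 5 and EtOH 1, was also its deepest library. Per kilobase of exon, 7 mitochondrial genes were the most abundant members. COX1, the catalytic subunit of complex IV, led with 13626 ± 1539 CPM per kb (SD, n = 7) in Control, followed by ND1 with 9873 ± 1348 and CYTB with 8931 ± 1145, which did not differ beyond their SD. Then came ND2 (5152), ND4 (3787), ND5 (3022) and ND6 (2319). The most abundant nuclear members on this scale were Cox8a with 410 ± 55.4, Cox6a1 with 385 ± 52.1 and Atp5b with 213 ± 13.6 CPM per kb, and Cox8a and Cox6a1 lay within 1 SD of each other. Per kilobase of the canonical transcript, a length chosen for this after seeing the data, the values were 648, 480 and 513, so that Atp5b stood above Cox6a1.

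Of the 13 mitochondrial genes, 1 was lower (7.69%, beside 11.6% of all tested genes) and 0 were higher. These counts rested on single mice, with up to 5 lower without Control 5 and up to 4 higher without EtOH 3. ND4, a proton-pumping subunit of complex I, ran from 3716 over 5308 to 6116 CPM in Control and was at 3343, 5121, 4784, 3757 and 3767 CPM in EtOH. Control 5 lay among the EtOH mice, and the log2 fold change of -0.33 (SE 0.11, adjusted p = 0.0419 by edgeR) passed in 3 of the 12 fits that left out 1 mouse. The other genes with clear counts did not pass, with -0.18 for ND1, -0.25 for ND2, 0.06 for ND5, -0.36 for ND6 (adjusted p = 0.0736 by edgeR), -0.22 for CYTB (adjusted p = 0.14) and -0.08 for COX1. COX1 ran from 17395 over 20561 to 24256 CPM in Control and was at 15547, 23135, 22547, 19603 and 18719 CPM in EtOH, so that the groups overlapped almost throughout. ND5 and ND6, on opposite strands, share a few bases at their ends, as do ND4 and ND4L.

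The other 6 mitochondrial genes are shadowed by a copy of mitochondrial DNA on chromosome 1. The first 60 bases of 2 of them are shown, since they occur base for base in the nuclear copy as well and a read from them could come from either place (GRCm39, plus strand of chrM:7013-7072 for COX2 and chrM:7927-7986 for ATP6).

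COX2: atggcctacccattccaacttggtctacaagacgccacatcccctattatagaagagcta

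ATP6: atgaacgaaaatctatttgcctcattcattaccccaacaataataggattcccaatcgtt

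The whole of COX2 is found without a difference at chr1:24653963-24654646 and the whole of ATP6 at chr1:24653052-24653732. The share of 100-base windows with such a copy was 98.8% for ND3 and 100% for ND4L, COX2, COX3, ATP6 and ATP8, against 0% for ND1, ND5, ND6 and CYTB, 3.2% for ND2, 30.8% for COX1 and 60.8% for ND4. The 6 copied genes were listed at group means between 2.00 and 23.5 CPM, whereas the other 7 lay between 936 and 21053 CPM. How reads with several matches were counted is not given in the sources used here.

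For the 6 copied genes, mitochondrial and nuclear origin of the reads cannot be told apart. ATP6 ran from 14.8 over 15.8 to 20.8 CPM in Control and was at 19.9, 40.9, 8.94, 20.5 and 27.2 CPM in EtOH, so that EtOH 3 lay below and EtOH 2 far above all Control mice. The log2 fold changes were 0.51 for ATP6, 0.44 for COX2, 0.31 for COX3, 0.21 for ATP8, 0.63 for ND4L (adjusted p = 0.0555 by edgeR) and -0.31 for ND3 (adjusted p = 0.0777), and none passed. Gm10925, a gene annotated in the chromosome 1 copy, was at 11.9 to 24.5 CPM in Control and 9.96 to 30.5 CPM in EtOH. The median log2 fold change was 0.37 over the 6 copied genes and -0.20 over the 6 with under 50% of windows copied.

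**Figure D5:**
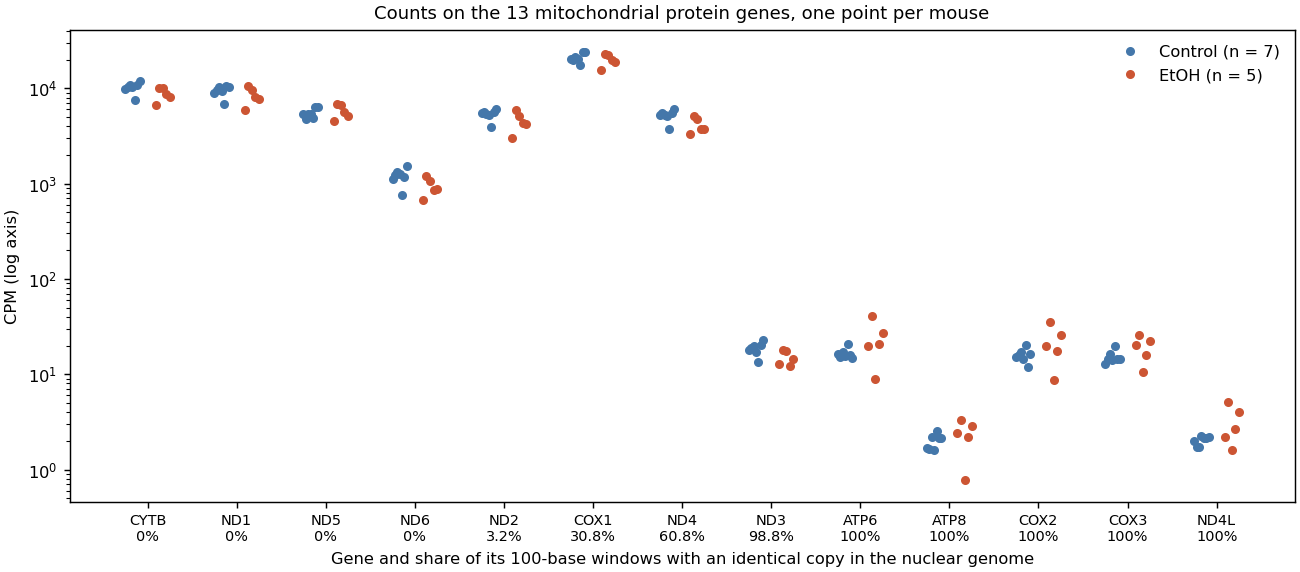
CPM (vertical axis, logarithmic) of the 13 mitochondrial protein genes in each of 7 Control and 5 EtOH mice, with genes ordered by the share of 100-base windows that have an identical copy in the nuclear genome. The 7 genes with shares of 0 to 60.8% lie near 1000 CPM or far above, and the 6 with 98.8 to 100% lie below 50 CPM.

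Promoters were searched for the motifs of factors known to drive nuclear respiratory genes. RefSeq promoter windows of 250 bases before to 50 after the start (GRCm38.p6) were held for 76 of the 93 tested nuclear members. The motif of NRF1, read on both strands, was found in 19 of the 76 (25%), beside 9.99% of the windows of 12445 tested genes. It was found in 5 of 25 lower members (20%) and in 14 of 51 that did not pass (27.5%). Some matches are shown with the motif in capitals, from lower and from not passing members, placed on GRCm39 by exact match and read in the direction of the gene.

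Cox6a1 (lower): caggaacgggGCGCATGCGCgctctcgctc

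Atp5g2 (lower): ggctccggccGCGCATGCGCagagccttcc

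Ndufa8 (lower): ctagagcagtGCGCTTGCGCgtcgctggag

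Sdha (not passing): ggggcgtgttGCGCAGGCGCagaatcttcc

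Ndufaf4 (not passing): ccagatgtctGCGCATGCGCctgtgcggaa

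These lie at chr5:115487160-115487189 (minus strand), chr15:102579505-102579534 (minus strand), chr2:35939361-35939390 (minus strand), chr13:74498395-74498424 (minus strand) and chr4:24897960-24897989 (plus strand), between 30 and 162 bases before the start that the RefSeq entry uses. The windows of Atp5g2, Ndufa8 and Sdha fall inside the gene as the GENCODE annotation of GRCm39 draws it. YY1 letters (GCCATCTT) were found in 14.5% of members and 4.56% of all windows, those of GABPA (CCGGAAGT) in 6.58% and 7.77%, and those of SP1 (GGGCGGGG) in 19.7% and 34.9%. The motifs were searched apart on both strands without regard to overlap, and a match is a description of letters only.

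Other mitochondrial genes were read from lists that share no symbol with the members. Of 41 assembly factors outside the Nduf names, 38 were tested, 5 were lower (13.2%, near the 11.6% of all tested genes) and 1 higher, with a median log2 fold change of -0.06. Timmdc1, an assembly factor of complex I, fell from 16.1 ± 1.57 CPM (SD, n = 7) to 11.6 ± 0.905 CPM (SD, n = 5) without overlap between groups (log2 fold change -0.47, SE 0.08, adjusted p = 0.000523 by edgeR). Coa5 and Cox14 (complex IV) and Tmem70 and Fmc1 (complex V) fell by between 0.23 and 0.29 on the log2 scale. Foxred1, also of complex I, rose by 0.25 (adjusted p = 0.0189 by edgeR).

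Of 18 tested mitochondrial carriers, porins and uncoupling proteins, 3 were lower (16.7%, beside 11.6% of all tested genes) and 0 higher, with a median of -0.15. Slc25a5, an exchanger of ADP and ATP, fell from 166 ± 10.8 CPM (SD, n = 7) to 141 ± 3.64 CPM (SD, n = 5), and Vdac1, the main porin of the outer membrane, from 364 ± 23.3 to 320 ± 2.26 CPM. In both, no EtOH mouse reached a Control mouse, and the log2 fold changes were -0.23 (adjusted p = 0.00379 by edgeR) and -0.18 (adjusted p = 0.0141). The uncoupling protein Ucp2, which microglia express strongly, fell by 0.40 on the log2 scale (adjusted p = 0.0191), beside the lower microglial markers given above.

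The citric acid cycle had 3 of 18 genes lower (16.7%, beside 11.6% of all tested genes), Suclg1, Suclg2 and Mdh2, and 0 higher, with a median of -0.01. Its first enzyme, citrate synthase (Cs), often used as a gauge of mitochondrial content, ran from 305.4 to 332.7 CPM in Control (n = 7) and from 302.6 to 342.5 CPM in EtOH (n = 5) (log2 fold change 0.03, adjusted p = 0.71 by edgeR). Among 15 genes of coenzyme Q synthesis and cytochrome c, 1 was lower (6.67%, beside 11.6% of all tested genes) and 0 higher, with a median of 0.00. The lower gene was Coq9, which passed in 3 of the 12 fits that left out 1 mouse. Cytochrome c (Cycs) gave -0.18 (adjusted p = 0.139) and cytochrome c1 (Cyc1) -0.12 (adjusted p = 0.115).

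Of 20 tested regulators of mitochondrial transcription and biogenesis, 0 were lower, beside 11.6% of all tested genes, and 2 were higher (10%, near the 12.1% of all tested genes), at a median of 0.03. The higher genes were Top1mt, the mitochondrial topoisomerase, by 0.44 (adjusted p = 0.00279 by edgeR), and Ppargc1b, a coactivator of respiratory genes, by 0.32 (adjusted p = 0.0199). Ppargc1a gave 0.03 (adjusted p = 0.715), Tfam, which packages mitochondrial DNA, 0.03 (adjusted p = 0.78), and Nrf1 -0.23 (adjusted p = 0.0711).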

How the data were processed

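Total RNA of mouse cortex was sequenced by a service. The authors checked reads with FastQC 0.11.9, used STAR and Gencode for alignment (GRCm39), and used featureCounts for counting. They deposited 1 table of expected counts per symbol for 12 mice without normalization, in which 61 symbols hold values that are not whole. Strand and multi-mapping settings are not given in the sources used here. All 12 columns were matched by name, and 0 were left over.

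Counts were rounded, filtered with filterByExpr, scaled by TMM and compared with edgeR's quasi-likelihood test (edgeR 4.0.16, R 4.3.3) over 16059 genes with Benjamini-Hochberg adjustment at 0.05, without covariates, and the fits were tested on simulated data. The standard error is the log2 fold change over the square root of F. CPM values use TMM-scaled library sizes, and scores average log2 CPM with a prior count of 2. Positions, exon overlaps and lengths come from a newer GENCODE annotation of GRCm39, which matched 110 of 111 members. Copies were sought with blastn 2.17.0+ as windows of 100 bases identical elsewhere in the genome. Intervals and floors cover counting error only. The replicates are different mice.

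Alternatives were DESeq2 1.42.0, limma voom 3.58.1, other scalings, filters and fold minimums, the replicate number as a block, and each mouse left out.

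Members, lists and tests were chosen with earlier results of these data known. The rule for named genes took every member past 0.5 in log2 fold change at the adjusted threshold, the 6 lower and 6 higher nuclear members with the smallest p, all mitochondrial members, core subunits, isoforms of complex IV, listed genes past the same fold, and Ppargc1a, Nrf1, Tfam, Cs, Cycs and Cyc1. Other genes named were chosen after their values were seen. Of the genes the rule selects, 1 is not reported here by name but remains in the counts. Marker lists not given in the report were parvalbumin interneurons (1 lower and 3 higher of 7), thalamus (1 and 1 of 6), astrocytes (0 and 3 of 9), oligodendrocyte precursors (2 and 2 of 7), endothelium (2 and 0 of 8), ependyma (0 and 0 of 6), muscle (0 and 0 of 7) and red cells (0 and 0 of 5).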

Additional observations from a re-analysis of the deposited data

Results flagged for a closer look

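Among 138 groups of values examined, 10 held 1 mouse far from the others of its group by Dixon's criterion at the 95% level, where chance gives about 6.9. In Control 5, the deepest Control library, mitochondrial genes stood apart: log2 CPM was lowest for ND1 (12.74, next 13.14), ND2 (11.93, next 12.36), ND4 (11.86, next 12.33) and CYTB (12.90, next 13.26). In the same mouse ATP6 was highest (4.38, next 4.09), and so was Gm10925 in the chromosome 1 copy (24.5 CPM, next 16.0). EtOH 1, the deepest EtOH library, had the highest Sdha (8.46, next 8.28) and the lowest Sdhc (5.99, next 6.19). Atp5e was lowest in EtOH 3 (4.70, next 4.93), and Tfam was highest in Control 2 (4.72, next 4.58).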

How the results depend on the processing

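Lower nuclear members numbered 31 by DESeq2 (13% of all tested genes), 25 by limma voom (11.3%), 27 under relative log expression factors (11.5%), 28 under upper quartile factors (11.8%), 16 with total counts only (10.1%, with a median of all genes of 0.02), 25 with mitochondrial genes left out of library sizes (11.3%), 20 with at least 1 count in any mouse (7.3%), 27 with at least 10 in every mouse (11.8%) and 25 without both deeper libraries (11.5%), and 0 were higher under each of these. With the replicate number as a block there were 28 (10.3%), of which 19 were shared; the same numbers deviated together by correlations of only -0.11 to 0.02, so the mice share only a number. The block left 0 mitochondrial genes lower. Without both deeper libraries 3 mitochondrial genes were lower and 1 was higher (ND4L), which DESeq2 and total counts only also called (1 each). With the minimum log2 fold change of 0.5, 0 nuclear members remained called without both deeper libraries, and 11 were called at a minimum of 0.25 and 0 at 1. With 1 mouse left out, lower nuclear members ranged from 12 to 36, lower mitochondrial genes from 0 to 5 (5 without Control 5), higher ones from 0 to 4 (4 without EtOH 3), members past the fold minimum from 0 to 2 and genes of the other lists from 9 to 28, beside 15 with all mice. The mitochondrial median ran from -0.15 to 0.000313 (positive without EtOH 1), the nuclear median from -0.16 to -0.12, the nuclear score difference from -0.18 to -0.13 and the mitochondrial share difference from -0.74 to -0.18 percentage points. Of 1219 log2 fold changes of named genes under an alternative, 57 lost the threshold and 36 gained it, and the cause was not tested. A sign change occurred in 16, all of genes that had not passed (among them COX1, ND5, Sdha, Cox7b, Ppargc1a and Tfam), with values between -0.04 and 0.02. The share of counts after removal of mitochondrial ribosomal RNA was not run, since no such rows were used. Depth limits Cox4i2 and other genes near 1 CPM.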
